A study of Mus musculus and Homo sapiens with 10 samples.

Results

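10 genes of amino acid uptake, amino acid synthesis and the amino acid stress response are described here across mouse embryonic stem cells (mESCs) and human embryonic stem cells (hESCs) treated with vitamin C (vitC). They are the carriers Slc1a4, Slc1a5, Slc7a3, Slc7a5, Slc7a11 and Slc3a2, the transcription factor Atf4, and the enzymes Asns, Phgdh and Psat1, found by symbol among 25899 mouse genes and, in upper case, among 35720 human genes. The set was chosen by symbol around the measured vitC-minus-control difference of Slc1a4 in these same mESC libraries, so the vitC values of the 10 genes in mESCs are given as a description. No p-values are printed for them, and their counts past a threshold and their intervals, which are not adjusted, describe the values that chose the set. The contrasts between cultures were tested.

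RNA-seq was available for 8 libraries of E14, an established mESC line. The mESCs were kept in serum-free 2i media with LIF, the MEK inhibitor PD-035901 and the GSK3 inhibitor CHIR-99021, and this medium already supplies non-essential amino acids, a stable glutamine source (GlutaMAX) and beta-mercaptoethanol to both groups. 4 untreated controls and 4 cultures given vitC at 100 µg/ml for 24 h were compared, and each control shares a culture label (10, 11, 35B or 35C) with 1 treated library. For hESCs there was 1 untreated control and 1 library given vitC at 100 µg/ml for 24 h, from the same labelled culture. Their labels name H9, an established line, and KSR/FGF media, whereas the methods give that medium for primed H9-NK2 cells, which carry KLF2 and NANOG transgenes that doxycycline switches on, linked to the reporter Venus, and fibroblast-conditioned media for primed H9, so the line and medium are not settled. Each species is represented by a single line, and nothing says that the cultures were started separately, so p-values measure the spread between these libraries.

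Cells take up amino acids through families of membrane carriers with overlapping substrates. When amino acids run short, or when the endoplasmic reticulum (ER) is stressed, kinases phosphorylate the translation factor eIF2, general protein synthesis falls and translation of Atf4 mRNA increases. Atf4 protein then binds composite C/EBP-ATF elements and raises the transcription of carriers, of synthetic enzymes such as Asns, and of tRNA synthetases. Because Atf4 is controlled mainly at translation, its mRNA level does not report its activity directly. mESCs depend on a steady supply of amino acids, and vitC is a cofactor of dioxygenases that act on DNA and histones.

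The promoter sequences of the members that hold the core letters of the C/EBP-ATF element, TGATGNAA, are shown because this element is the known route from Atf4 to these genes. The search covered both strands of RefSeq promoters (GRCm38.p6, from 250 bases before to 50 bases after the annotated start) and the motif was not combined with any other. 7 of the 10 members had an entry, and 3 of those 7 genes held a match (3 of 8 promoters), against 4.51% of all 27025 genes and 3.97% of all 32851 promoters in the table. Capitals mark the match in each sequence, which is printed 5′ to 3′ along the gene.
Slc1a4, chr11:20332664-20332963, minus strand: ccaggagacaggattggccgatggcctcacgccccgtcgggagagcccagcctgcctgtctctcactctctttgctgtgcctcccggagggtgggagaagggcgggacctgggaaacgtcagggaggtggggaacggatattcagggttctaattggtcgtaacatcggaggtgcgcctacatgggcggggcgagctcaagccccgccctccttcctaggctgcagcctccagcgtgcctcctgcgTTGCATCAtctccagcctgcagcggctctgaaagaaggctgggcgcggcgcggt
Slc7a11, chr3:50443564-50443863, minus strand: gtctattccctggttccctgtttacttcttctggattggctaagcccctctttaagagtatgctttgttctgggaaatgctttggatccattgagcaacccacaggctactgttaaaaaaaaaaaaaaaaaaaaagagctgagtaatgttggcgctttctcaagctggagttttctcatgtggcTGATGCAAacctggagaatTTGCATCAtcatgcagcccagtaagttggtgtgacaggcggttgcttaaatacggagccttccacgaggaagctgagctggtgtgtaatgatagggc
Asns, chr6:7693160-7693459, minus strand: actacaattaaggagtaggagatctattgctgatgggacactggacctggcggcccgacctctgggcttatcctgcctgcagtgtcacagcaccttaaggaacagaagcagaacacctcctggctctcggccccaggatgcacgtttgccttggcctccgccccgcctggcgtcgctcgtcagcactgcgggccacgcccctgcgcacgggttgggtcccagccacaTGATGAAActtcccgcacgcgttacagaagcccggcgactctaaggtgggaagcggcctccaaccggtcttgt

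In Slc1a4 the match lay across the annotated start, at position -4, and reads TTGCATCA along the gene because it is on the opposite strand. Slc7a11, which encodes the cystine/glutamate exchanger, held a pair of matches at -66 and -47, on opposite strands. Asns held TGATGAAA at -23. No match was found in the windows of Slc3a2, Atf4, Phgdh and Psat1, and Slc1a5, Slc7a3 and Slc7a5 were not in the table. The letters were also in the promoters of 7 of 18 listed Atf4 target genes and 5 of 13 cytosolic tRNA synthetase genes, but in 1 of 36 amino acid carrier genes other than the members.

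Slc1a4 encodes ASCT1, a sodium-dependent exchanger of alanine, serine, cysteine and threonine (chromosome 11, 20302180 to 20332713, minus strand, GRCm38). Its level in the controls of cultures 10, 11, 35B and 35C was 33.9, 33.5, 42.8 and 48.55 CPM (reads scaled to the gene reads of the library). In the vitC libraries of the same cultures it was 88.6, 99.7, 97.2 and 94.45 CPM. Every vitC library lay above every control, and the vitC libraries were closer together than the size of the gap. The means were 39.7 ± 7.29 CPM (SD, n = 4) in control and 94.97 ± 4.78 CPM (SD, n = 4) in vitC-treated mESCs, a ratio of 2.39. Within cultures the ratio was 2.61, 2.97, 2.27 and 1.945. On the deposited variance-stabilised scale, which is log2-like but compresses low levels, the difference was 0.93 (SE 0.08), and the log2 fold change on recovered reads was 1.26 (SE 0.12).

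Of the 10 members, 1 (Slc1a4) passed the threshold as higher and 0 as lower in the unpaired limma fit, where 0.321% of all 14631 tested genes were higher and 0.0205% lower. With the culture as a block in limma, 2 members (Slc1a4 and Asns) were past it as higher and 0 as lower, where 6.36% of all genes were higher and 4.44% lower. In edgeR with the same block, 2 were higher and 1 (Slc7a3) was lower, beside 1059 higher and 888 lower among all 14631 tested genes. Slc1a4 was also the only member whose control and vitC libraries did not overlap in CPM, as was true of 5.37% of tested genes. Because Slc1a4 prompted the set, nothing is read from these counts.

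**Figure D1:**
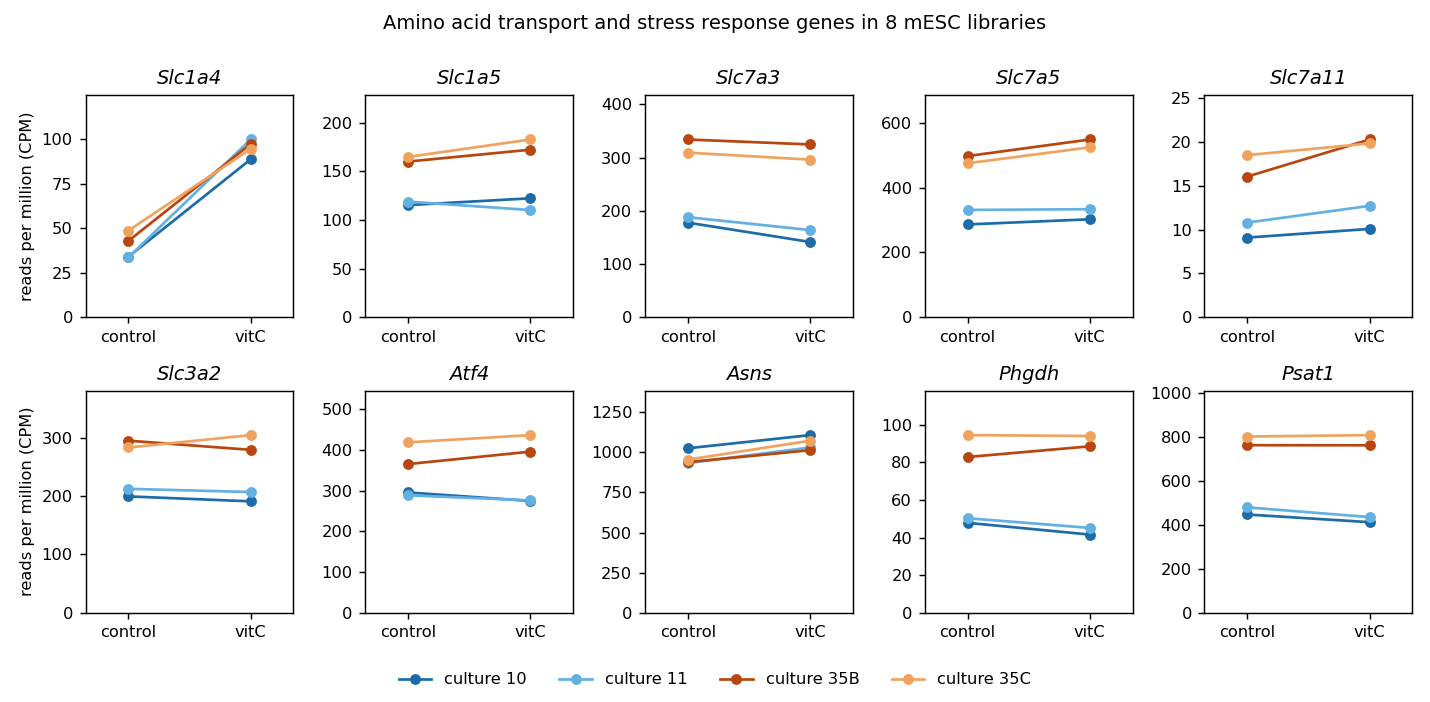
Level of each of the 10 genes in CPM (vertical axis, from 0, a separate scale for each gene) in the control and vitC libraries of 4 mESC cultures, with a line joining the 2 libraries of a culture. Slc1a4 rises from 33.5 to 48.55 CPM in control to 88.6 to 99.7 CPM with vitC, whereas most other genes are separated by culture, with 35B and 35C (orange) above 10 and 11 (blue).

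Slc1a5 encodes ASCT2, the closest relative of ASCT1 and a carrier of glutamine. In cultures 10, 11, 35B and 35C it was at 115, 119, 160.1 and 165 CPM in control and at 122, 110.2, 172 and 183 CPM with vitC. The groups overlapped almost fully and 3 of 4 pairs were higher with vitC, with a variance-stabilised difference of 0.060 (95% interval in the paired fit -0.030 to 0.15). Within each library, the log2 ratio of Slc1a4 to Slc1a5 CPM lay between -1.90 and -1.76 in the controls and between -0.953 and -0.144 in the vitC libraries. The 4 control ratios lay close together although both genes were higher in the controls of 35B and 35C.

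Slc7a3 encodes a carrier of cationic amino acids such as arginine and lysine. It was at 178, 188, 334 and 309 CPM in control and at 141, 164, 325 and 296 CPM with vitC. It was lower with vitC in 4 of 4 cultures, by ratios of 0.795, 0.871, 0.972 and 0.957, but these gaps were small against the distance between cultures. The difference was -0.13 (paired 95% interval -0.22 to -0.039).

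Slc7a5 (LAT1, a carrier of leucine and other large neutral amino acids) and Slc7a11 (xCT) each form a heterodimer with the heavy chain encoded by Slc3a2. Slc7a5 was at 286, 331, 497 and 475 CPM in control and at 302, 333, 548 and 524 CPM with vitC. Slc7a11 was at 9.08, 10.8, 16.0 and 18.5 CPM in control and at 10.1, 12.7, 20.3 and 19.8 CPM with vitC, from 54 to 128 reads. Both were higher with vitC in 4 of 4 cultures, by 0.098 (paired 95% interval 0.024 to 0.17) and 0.099 (-0.012 to 0.21). Slc3a2 was at 199, 212, 295 and 283 CPM in control and at 191, 207, 279 and 304 CPM with vitC, higher in 1 of 4 cultures. The log2 ratio of Slc7a5 to its partner Slc3a2 stayed between 0.522 and 0.974 over the 8 libraries. Slc7a11 shares its locus with 5 other annotated genes and Slc7a5 with 1, and whether the counting used strand is not given in the sources used here.

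Atf4, the transcription factor of this response, was at 295.5, 288.5, 365 and 419 CPM in control. With vitC it was at 275, 276, 396 and 436 CPM. It was lower with vitC in cultures 10 and 11 and higher in 35B and 35C, with a mean difference of 0.013 (paired 95% interval -0.069 to 0.094). Asns, which makes asparagine from aspartate and glutamine and is a standard readout of Atf4 activity, was at 1025, 933, 939 and 954 CPM in control and at 1107, 1030, 1013 and 1072 CPM with vitC. Its pairs all rose by a similar ratio, from 1.08 to 1.124, while the groups still overlapped because the highest control exceeded the lowest vitC library. The difference was 0.14 (SE 0.062 unpaired, 0.029 paired).

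Phgdh and Psat1 catalyse the first 2 steps of serine synthesis. Phgdh was at 47.8, 50.3, 82.85 and 94.5 CPM in control and at 41.6, 45.1, 88.5 and 94.0 CPM with vitC. Psat1 was at 448, 480.4, 764 and 804 CPM in control and at 413, 436, 764 and 810 CPM with vitC. Both were lower with vitC in cultures 10 and 11, while in 35B and 35C the ratio to control was 1.07 and 0.995 for Phgdh and 0.9996 and 1.01 for Psat1. The differences were -0.035 (paired 95% interval -0.13 to 0.063) and -0.047 (-0.12 to 0.025). The log2 ratio of Phgdh to Psat1 lay between -3.31 and -3.09 in the 8 libraries, with an SD of 0.0856, although the log2 levels of the genes had SDs of 0.524 and 0.445. Psat1 overlaps 1 annotated pseudogene and Phgdh has 1 named pseudogene, so reads may be split between copies.

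**Figure D2:**
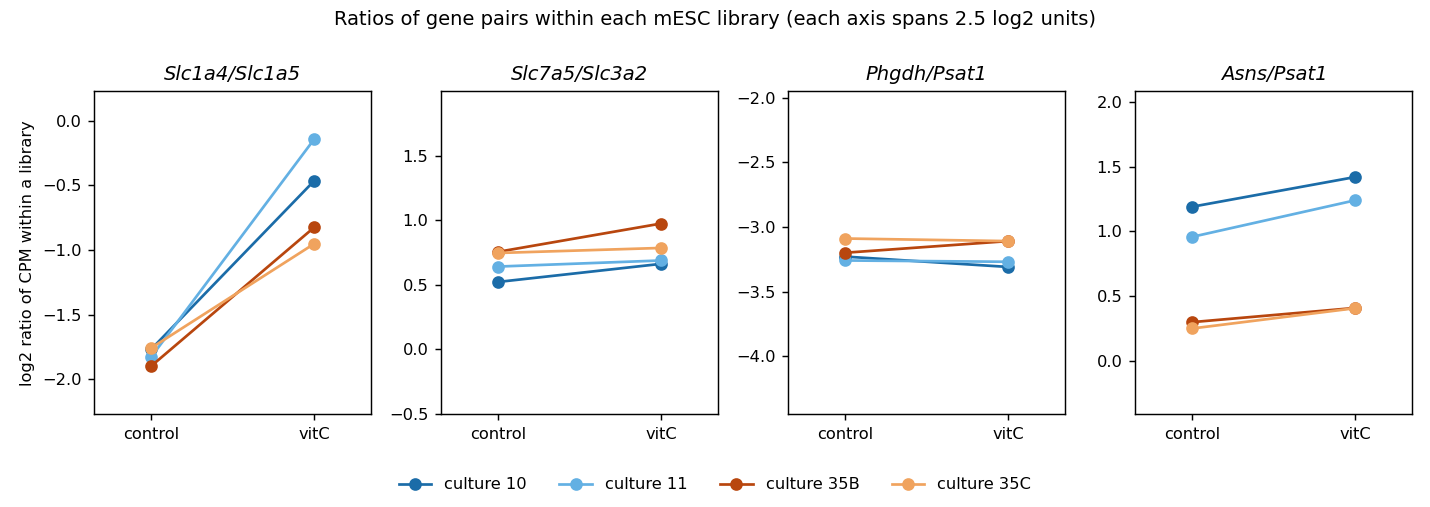
Log2 ratio of the CPM of 2 genes within each mESC library (vertical axis; each panel spans the same range) in control and vitC libraries, with 1 line per culture. Slc1a4/Slc1a5 moves from between -1.90 and -1.76 to between -0.953 and -0.144, Phgdh/Psat1 stays between -3.31 and -3.09, and Asns/Psat1 separates cultures 10 and 11 from 35B and 35C.

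Compared per kilobase of exon (RPKM, the CPM divided by the length of the union of annotated exons), the level in control mESCs was highest for Asns, at 394 ± 17.5 RPKM (SD, n = 4). Psat1 (209 ± 62.1) and Atf4 (198 ± 35.8) followed and overlapped each other. Slc7a5 (113 RPKM), Slc7a3 (86.7), Slc3a2 (74.0), Slc1a5 (50.6) and Phgdh (35.4) came next in that order, each overlapping its neighbour. Slc1a4, at 10.1 ± 1.86 RPKM, and Slc7a11, at 1.38 ± 0.447 RPKM, were the lowest and overlapped no other member. With vitC, Slc1a4 reached 22.6 to 25.4 RPKM. In the vitC libraries of cultures 10 and 11 it was above Phgdh (22.6 and 25.4 against 21.4 and 23.2 RPKM). In those of 35B and 35C it was below Phgdh (24.75 and 24.06 against 45.5 and 48.3 RPKM).

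Genes were then ranked by how closely their variance-stabilised values, centred on their own mean, followed those of Slc1a4 over the 8 libraries. The nearest 5 were Gm20548 (root mean square difference 0.0996), Qpct, Samd9l, Gm13227 and Pramef8 (0.189), against an SD of 0.51 for Slc1a4 itself. None of them is in the lists of carriers, synthetic enzymes or Atf4 targets. Gm20548 went from 0.487 to 1.78 CPM in control to 12.5 to 16 CPM with vitC. Pramef8 went from 50.6 to 65.9 CPM to 90.4 to 103 CPM. The variance-stabilised scale compresses low levels, so nearness here does not mean a like fold change. This ranking also uses the vitC values of Slc1a4 that chose the set, so nothing is read from it. Among the other members the nearest to Slc1a4 was Asns, at 0.419. The values were not scaled, so a gene that varied little, like Asns (SD of log2 CPM 0.0905), can score nearer than one that varied otherwise. This distance therefore does not show a shared pattern. The pattern of Atf4, whose SD was 0.255, was most nearly matched by Lars (0.0397), Zcchc3, Eif4ebp1, Elovl7 and Nars (0.0485). Lars and Nars encode the leucine and asparagine tRNA synthetases, and Eif4ebp1 an inhibitor of cap-dependent translation. Of the members, Slc1a5 (0.0603), Slc3a2 (0.0752) and Slc7a11 (0.0944) were nearest to Atf4.

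The related genes were taken as 6 lists holding 146 genes, of which 128 had enough signal to be tested: other amino acid carriers, Atf4 targets, cytosolic tRNA synthetases, enzymes of amino acid synthesis and one-carbon metabolism, eIF2 kinases and regulators, and ER chaperones. In the unpaired limma fit 0 of the 128 passed the threshold with vitC. Without adjustment, 8 rises and 6 falls had a limma p under 0.05, beside 655 rises and 465 falls among all 14631 tested genes. In edgeR without the block, 0 of the 128 were called as well. With the culture as a block, limma called 16 of them higher and 15 lower, or 12.5% and 11.7%, beside 6.36% and 4.44% of all genes. Median differences were 0.0048 for carriers, 0.039 for Atf4 targets, 0.030 for tRNA synthetases, -0.011 for the enzymes, 0.0023 for eIF2 regulators and -0.11 for ER chaperones, beside 0.036 for the 10 members and -0.0020 for all tested genes.

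Among 29 other carriers tested, 7 rose and 2 fell in the paired limma fit, beside 6.36% and 4.44% of all tested genes. The largest rises were those of Slc7a14, Slc38a4 and Slc1a1. Slc7a14, an orphan member of the cationic carrier family, went from 0.193 to 0.578 CPM in control to 0.894 to 6.01 CPM with vitC, on 9 reads in all 4 controls together and 65 in the vitC libraries (difference 0.40, paired limma adjusted p = 0.00436, unpaired 0.327). It is, like Slc1a4, in the study's own list of changed genes from these samples, so its direction is not independent evidence. Slc38a4, a carrier of neutral and cationic amino acids, had a mean of 14.3 ± 9.05 CPM (SD, n = 4) in control and 24.0 ± 15.2 CPM with vitC, higher in 4 of 4 cultures (difference 0.36, paired limma adjusted p = 0.000325, unpaired 0.819). Slc1a1, a glutamate and cysteine carrier of the Slc1 family, went from 3.35 ± 0.585 to 6.69 ± 1.76 CPM (difference 0.28, paired limma adjusted p = 0.00598, unpaired 0.239). The 2 that fell were Slc7a6, a partner of Slc3a2 that went from 24.4 ± 2.08 to 17.2 ± 2.05 CPM (paired limma adjusted p = 0.00434, unpaired 0.217), and the glutamine carrier Slc38a1, from 184 ± 89.9 to 167 ± 93.4 CPM (paired 0.0292, unpaired 0.965).

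Of 18 Atf4 targets tested, 2 rose and 1 fell in the paired limma fit, where 6.36% of all tested genes rose and 4.44% fell. Without the block, 0 of them passed the threshold. Gpt2, a mitochondrial alanine transaminase, rose by 0.16 (paired limma adjusted p = 0.0259, unpaired 0.942) and Xpot, a tRNA export receptor, by 0.15 (paired 0.0159, unpaired 0.785). Cth, which makes cysteine from cystathionine, fell by 0.15 (paired limma adjusted p = 0.0191, unpaired 0.885). Of 20 tRNA synthetases, 1 rose in the paired fit, the glycine enzyme Gars, by 0.12 (paired limma adjusted p = 0.0284, unpaired 0.916). Counts this small lie near the shares of all genes, so nothing is read from them about either list. None of the 15 eIF2 kinases and regulators was past the threshold in either limma fit, and 0 of them had an unadjusted p under 0.05 in the unpaired fit. edgeR with the block called 1 of them lower, beside 888 of all 14631 tested genes.

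Of 26 enzymes of amino acid synthesis and one-carbon metabolism, 6 rose and 4 fell in the paired limma fit, beside 6.36% and 4.44% of all tested genes. Glud1, the mitochondrial glutamate dehydrogenase, which links glutamate to 2-oxoglutarate, had a mean of 458 ± 46.7 CPM (SD, n = 4) in control and 644 ± 73.4 CPM with vitC, with no overlap between the groups (difference 0.48, paired limma adjusted p = 1.56e-07, unpaired 0.102). Mthfd2l, a mitochondrial folate enzyme, went from 1.89 ± 0.293 to 4.05 ± 0.823 CPM (paired limma adjusted p = 0.018, unpaired 0.22), and Aldh1l1, a cytosolic folate enzyme, rose by 0.18 (paired 0.0125, unpaired 0.938). Among the falls were those of Gcsh, a subunit of the glycine cleavage system, at -0.25 (paired limma adjusted p = 0.000431, unpaired 0.653), and Oat, ornithine aminotransferase, at -0.19 (paired 0.00653, unpaired 0.641).

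Of 20 ER chaperones and genes of the unfolded protein response, 0 rose and 8 fell in the paired limma fit, beside 6.36% and 4.44% of all tested genes. Pdia6, a disulphide isomerase, had a mean of 270 ± 25.3 CPM (SD, n = 4) in control and 217 ± 18.9 CPM with vitC (difference -0.27, paired limma adjusted p = 0.000253, unpaired 0.338). Hsp90b1, the ER form of HSP90, went from 863 ± 41.9 to 708 ± 38.8 CPM, without overlap (difference -0.26, paired limma adjusted p = 1.09e-05, unpaired 0.202). Dnajc3, a co-chaperone, fell by 0.22 (paired limma adjusted p = 0.0229, unpaired 0.746). Each of these 3 was lower with vitC in 4 of 4 cultures.

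The larger difference in most of the members lay between cultures. Cultures 35B and 35C were compared with cultures 10 and 11 on the mean of the control and vitC library of each culture (2 cultures against 2), a contrast that the choice of the genes did not use. 8 of the 10 members were higher in 35B and 35C and 0 were lower, where 14.7% of all tested genes were higher and 18.1% lower in limma, and 32.3% did not overlap between the 2 sets. The 8 are Slc7a3, Psat1, Phgdh, Slc7a5, Slc3a2, Atf4, Slc1a5 and Slc7a11, and in each of them all 4 libraries of 35B and 35C lay above all 4 libraries of 10 and 11.

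Slc7a3 differed by 0.81 (SE 0.066, limma adjusted p = 2.76e-06), from 141 to 188 CPM in cultures 10 and 11 against 296 to 334 CPM in 35B and 35C. Psat1 differed by 0.77 (limma adjusted p = 2.78e-06) and Phgdh by 0.70 (5.21e-06), which were the higher by 1.77 and 1.95 times in mean CPM. Slc7a5 differed by 0.65 (limma adjusted p = 2.03e-05) and its partner Slc3a2 by 0.46 (0.000116). Atf4 mRNA differed by 0.46 (limma adjusted p = 0.000197), Slc1a5 by 0.45 (9.36e-05) and Slc7a11 by 0.36 (0.0011). Without culture 10, Slc7a11 differed by 0.30 and was no longer past the threshold (limma adjusted p = 0.0564). The other 7 were past it without any 1 culture, but these fits set 2 cultures against 1 and assume that the lone culture varies like the others.

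Slc1a4 and Asns were not called between the culture sets. Slc1a4 differed by 0.14 (SE 0.058, limma adjusted p = 0.0835), and with the control libraries alone by 0.27 (limma adjusted p = 0.037) but with the vitC libraries alone by 0.00797 (0.952). Asns differed by -0.055 (SE 0.064, limma adjusted p = 0.547), with 933 to 1107 CPM in cultures 10 and 11 and 939 to 1072 CPM in 35B and 35C. The log2 ratio of Asns to Psat1 therefore had a mean of 1.20 in cultures 10 and 11 and 0.339 in 35B and 35C.

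**Figure D3:**
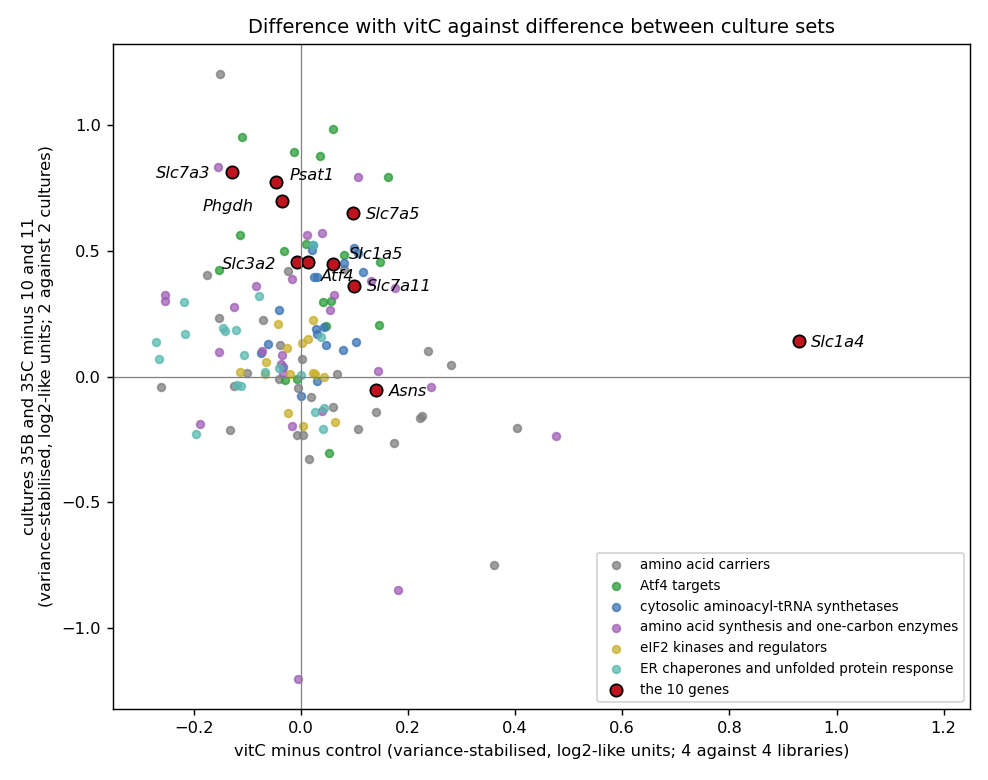
Each point is a gene. The horizontal axis gives the difference between vitC and control libraries and the vertical axis the difference between cultures 35B and 35C and cultures 10 and 11, both in variance-stabilised units. Slc1a4 stands alone at 0.93 on the horizontal axis, 8 of the 10 genes (red) lie at 0.36 or more on the vertical axis, and most Atf4 targets (green) lie above 0.

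The lists differed between the culture sets as well. Of 18 Atf4 targets, 15 were higher in 35B and 35C and 1 was lower in limma, with a median difference of 0.47, beside 0.46 for the members and -0.0082 for all genes. The 4 Atf4 targets with the largest differences, chosen here after their values were seen, were Trib3, Nupr1, Cebpb and Chac1. Trib3, a pseudokinase induced by stress, went from 34.1 to 42.2 CPM in cultures 10 and 11 to 90.2 to 118 CPM in 35B and 35C (limma adjusted p = 9.6e-07), and Chac1, which degrades glutathione, from 14.9 to 16.6 CPM to 39.6 to 49.0 CPM (1.1e-06). Cebpb, a partner of Atf4 on the composite element, was 4.10 times and Nupr1, a stress-induced chromatin protein, 3.18 times as high in mean CPM. The 1 lower target was Ddit4, an inhibitor of mTORC1, at -0.30 (limma adjusted p = 0.0119).

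12 of 20 tRNA synthetases and 13 of 26 synthetic and one-carbon enzymes were higher in 35B and 35C in limma, and 0 and 5 were lower. Other carriers were split, with 6 of 29 higher and 8 lower and a median of -0.042. Of the 15 eIF2 kinases and regulators, 2 (Eif2s3x and Eif2b1) were higher and 1 (Eif2ak1) was lower, with a median of 0.016. ER chaperones had 6 of 20 higher and 2 lower, with a median of 0.079. Over the 6 lists, beside 14.7% higher and 18.1% lower among all tested genes, 54 of 128 genes (42.2%) were higher and 17 (13.3%) lower. Without culture 10 or without culture 11, which leaves 2 cultures against 1, fewer genes were called both in the lists and among all tested genes.

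Listed genes with TGATGNAA in the promoter can be set beside those without. Among Atf4 targets the median difference between culture sets was 0.68 for the 6 tested genes with a match and 0.30 for the 11 without, and among tRNA synthetases 0.40 for 5 and 0.12 for 7. The members did not follow this order: the 3 with the motif, Slc1a4, Slc7a11 and Asns, had a median of 0.14 and the 4 without it 0.58. The median vitC differences of these members were 0.14 and -0.021. As the 3 with the motif include Slc1a4, whose vitC difference prompted the set, nothing is read from these vitC medians.

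Other measures also moved with the culture sets. Ribosomal RNA took 42.0% to 51.5% of all repeat counts in cultures 10 and 11 and 60.0% to 63.1% in 35B and 35C. All 8 pluripotent cell markers were detected in every library, with a summed level of 5150 to 5710 CPM in cultures 10 and 11 and 5560 to 5790 CPM in 35B and 35C, but single markers separated in both directions. Pou5f1 (783 to 924 against 1100 to 1220 CPM) and Lin28a (344 to 379 against 445 to 517) were higher in 35B and 35C, and Sox2 (474 to 568 against 375 to 440) and Tfcp2l1 (1870 to 2260 against 1540 to 1810) lower. The 4 trophoblast markers summed to 16.6 to 20.3 CPM in cultures 10 and 11 and 1.01 to 2.67 CPM in 35B and 35C, almost all from Cdx2, while Elf5 and Hand1 were at 0. The 6 fibroblast markers summed to 5.20 to 14.4 and 11.4 to 16.8 CPM with Dcn at 0, and among them Thy1 was at 1.14 to 2.12 CPM against 10.4 to 16.8 CPM, and Col1a2 at 2.89 to 10.4 CPM against 0 in 35B and 35C. Summed levels were, for the 6 endoderm markers, 3.41 to 5.78 and 0.843 to 3.18 CPM with Afp at 0, and for the 4 neural markers 5.32 to 13.5 and 5.69 to 7.75 CPM. The part of these in the results was not tested, the labels do not say what else set the cultures apart, and in bulk RNA fewer cells of a type and less RNA per cell cannot be told apart.

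Whether the vitC difference itself depended on the culture set was tested on the 4 differences within cultures (2 against 2). limma called 0 of the 14631 genes (0%), with 1059 at an unadjusted p under 0.05, and 0 of the 10 members had an unadjusted p under 0.05. Slc1a4 rose by 1.06 in cultures 10 and 11 and by 0.80 in 35B and 35C, so the rise in 35B and 35C was smaller by 0.26, with a 95% interval from -0.55 to 0.026 (limma adjusted p = 0.738). Asns changed almost equally, by 0.136 and 0.144. With 2 cultures on each side, a dependence inside these intervals was not detectable.

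In hESCs, no member moved by as much as 1.5-fold, where 6.98% of the 14306 genes with at least 10 reads in both libraries did. With 1 library in each condition there is no replicate check, and the 95% intervals, which are exact, cover counting error only. SLC1A4 had 143 reads in control and 137 with vitC, or 9.31 CPM (7.84 to 10.96) and 7.97 CPM (6.69 to 9.42). Its log2 ratio was -0.223 (-0.572 to 0.125), and the interval lies below the ratio of each of the 4 mESC cultures.

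The other 9 human genes had log2 ratios between -0.161 for ASNS and 0.0945 for ATF4. ASNS went from 129 to 116 CPM (log2 ratio -0.251 to -0.0704) and ATF4 from 284 to 303 CPM (0.0362 to 0.153). SLC1A5 was at 307 and 324 CPM and SLC3A2 at 354 and 369 CPM, with ratios of 1.06 and 1.04. SLC7A5 (868 and 842 CPM), SLC7A3 (25.5 and 23.4), SLC7A11 (92.9 and 91.5), PHGDH (364 and 361) and PSAT1 (402.5 and 377.5) were all slightly lower with vitC, and the intervals of SLC7A3, SLC7A11 and PHGDH included no change. Where the interval of a small ratio did not include no change, it shows only that these 2 libraries differed.

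Per kilobase of exon, the human control library ordered the genes differently, on a table normalised separately from the mouse one. SLC7A5 (188 RPKM), PSAT1 (182) and PHGDH (130) were the highest members, ASNS was at 40.8 RPKM, and SLC1A4 was the lowest at 1.98 RPKM. Of these, SLC7A5 has 2 named pseudogenes and PSAT1 and ASNS have 4 each, so reads may be split between copies. SLC7A5, ASNS and SLC1A4 each overlap 2 other annotated genes. In the related lists, 1 Atf4 target was past 1.5-fold as higher, GDF15, a secreted stress hormone, with 70 and 123 reads (log2 ratio 0.652, with an interval of 0.217 to 1.1). 1 tRNA synthetase was past it as lower, CARS, the cysteine enzyme, with 131 and 44 reads (log2 ratio -1.74, -2.26 to -1.23). The control and vitC hESC libraries held 2200 and 2210 CPM of the 8 pluripotent cell markers. LIN28A gave 1180 and 1210 CPM, while ESRRB (0.0651 and 0.349) and TFCP2L1 (0.456 and 0.524) were very low. The 6 fibroblast markers summed to 1740 and 1620 CPM. COL1A1 gave 1180 and 1100 CPM, COL1A2 419 and 381 CPM and THY1 126 and 128 CPM. COL3A1 was at 8.65 and 8.26 CPM, LUM at 0.456 and 0.989 CPM and DCN at 0. The part of these fibroblast markers in the values was not tested.

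**Figure D4:**
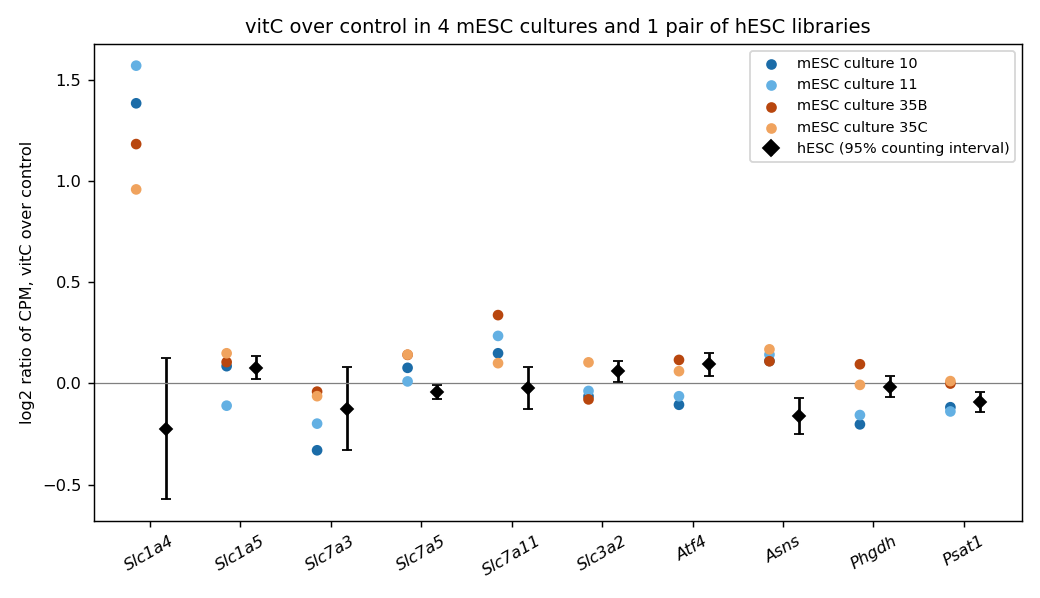
Log2 ratio of CPM between vitC and control (vertical axis) for each of the 10 genes in 4 mESC cultures (coloured points) and in the single pair of hESC libraries (black diamonds with 95% counting intervals). Slc1a4 lies well above 0 in the 4 mouse cultures and at -0.223 in hESCs, and the other 9 human genes lie between -0.161 and 0.0945.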

How the data were processed

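RNA-seq of 8 mESC and 2 hESC libraries was analysed, grouped by the sample labels. The members and the gene lists were chosen with earlier results of these data known. Per the methods, the authors depleted ribosomal RNA, made directional libraries, trimmed the reads, mapped and counted them with SQuIRE on mm10 or hg38, and used DESeq2. The labels name either depletion or mRNA isolation. Processing notes also list Trim Galore and HISAT2, and versions are not given in the sources used here. The gene tables that the authors deposited hold values after a variance-stabilising transformation, in log2-like units. For repeats, the authors deposited expected counts per subfamily, which were rounded and used here only for the ribosomal share. 9 other columns of per-sample values were not used.

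Inverting the transformation, with the smallest step taken as 1 read, turned 100% of the 116385 mouse values over the minimum into whole reads (within 0.01 reads). These recovered reads gave CPM, RPKM and the count tests. Controls held 4489804 to 6921305 gene reads, vitC libraries 3354852 to 5826923, and the hESC libraries 15367652 and 17188555. The hESC intervals cover counting error only, and as the libraries carry no molecular identifiers they treat every read as separate. The mESC intervals come from the spread between libraries.

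The main test was limma 3.58.1 (lmFit, eBayes with trend) in R 4.3.3 on the deposited values of the 14631 genes that exceeded the table minimum in 4 or more libraries. The design had no culture term, with Benjamini-Hochberg adjustment over all tested genes and a threshold of 0.05. Replicate numbers were treated as pairs in the blocked fits, since libraries with one number share a culture label, and after removal of group means such libraries correlated at 0.626 to 0.765. Culture sets were compared on the mean of each culture, and the vitC effect between sets on the difference within each culture. In hESCs, exact Clopper-Pearson and conditional binomial limits at 95% were computed. Alternatives were the replicate block, other filters, quantile normalization, eBayes without trend, a 1.5-fold minimum, subsets of libraries, and edgeR 4.0.16 and DESeq2 1.42.0 on recovered reads. The fits were also run on simulated data. Libraries simulated for the vitC contrast carried no culture difference, so that run cannot choose between fits with and without the block.

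All 10 members are given in every library. Of each list, up to 3 of the largest rises and 3 of the largest falls past the threshold in the unpaired or paired limma fit are named, and for Slc1a4 and Atf4 the 5 genes with the nearest pattern. A gene result that this rule would give is not reported here. Gene positions and exon lengths are those of the GENCODE annotations.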

Additional observations from a re-analysis of the deposited data

Results flagged for a closer look

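Atf4 and Psat1 moved in opposite directions with vitC in the 2 culture sets, with both cultures of a set on one side on the variance-stabilised scale. Atf4 changed by -0.065 in cultures 10 and 11 and by 0.091 in 35B and 35C, a difference of 0.157. In the test of that difference, it was not past the threshold (limma adjusted p = 0.773, 95% interval -0.045 to 0.36). Psat1 changed by -0.11 and 0.014, a difference of 0.123 that was also not past it (limma adjusted p = 0.827, 95% interval -0.077 to 0.32). No library stood apart from the other 3 of its group by Dixon's test in the 20 groups examined, 2 for each gene. Each of these groups holds 2 libraries of either culture set, and for the 8 genes that separate by set the gap between sets makes such a flag hard to reach, so this says little.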

How the results depend on the processing

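For the vitC difference of named genes in mESCs, 702 alternative values kept direction and side of the threshold, 82 passed it under the alternative alone, most of them under the replicate block, 1 (Slc1a4, the gene that prompted the set, in replicates 3 and 4 alone) lost it, and 33 changed sign without being past it in either setting. Leaving out 1 library, which by construction unbalances the culture sets, gave -0.036 to 0.16 for Slc1a5, -0.30 to 0.055 for Slc7a3, -0.036 to 0.24 for Slc7a5, -0.11 to 0.094 for Slc3a2, -0.097 to 0.11 for Atf4, -0.17 to 0.11 for Phgdh, -0.20 to 0.11 for Psat1, -0.37 to 0.067 for Slc38a1 and -0.016 to 0.33 for Gpt2. Replicates 1 and 2 alone gave -0.065 for Atf4, and replicates 3 and 4 alone 0.020 for Slc3a2, 0.042 for Phgdh and 0.014 for Psat1. The vitC effect by culture set, without 1 culture, was -0.031 to 0.091 for Slc7a11, -0.026 to 0.13 for Slc3a2 and -0.016 to 0.032 for Asns. Without the block, limma called 47 genes higher and 3 lower with vitC, including 1 member and 0 listed genes. The replicate block gave 931 and 650, with 2 members and 16 and 15 listed genes. edgeR with the replicate block gave 1059 and 888, with 2 members higher and 1 lower and 15 and 18 listed genes. DESeq2 gave 104 and 18, with 2 and 1 listed genes, and with the replicate block 359 and 162, with 2 members and 6 and 6 listed genes. Genes above the minimum in all 8 libraries gave 27 and 1, a 1.5-fold minimum 23 and 1, and quantile normalization 5 lower. Replicates 1 and 2 alone gave 147 and 28, with 2 listed genes higher, and replicates 3 and 4 alone 4 and 0, with 0 members. Leaving out each library gave 19 to 31 higher and 0 to 1 lower.

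Between culture sets, 2156 genes were higher and 2643 lower. The control libraries alone gave 1018 and 1453 with 5 listed genes lower (17 with all libraries), and the vitC libraries alone 1378 higher with 11 listed genes lower. Leaving out a culture, chosen after seeing the data and leaving 2 against 1, gave 526 to 2088 higher and 939 to 2458 lower, with 27 to 53 listed genes higher and 3 to 13 lower. For the vitC effect by culture set it gave 0 to 4 and 0 to 6 genes. The cause of these shifts was not tested, beyond the fewer libraries in the subsets. Depth limits Slc7a11 and the low carriers most, and the hESC values have no replicate.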
